A study of Mus musculus with 5 samples.

Results

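The 10 genes described here encode transcription factors of the adipogenic program: *Cebpb*, *Cebpd*, *Klf4* and *Klf5*, which act early, *Zfp423*, *Ebf1* and *Gata2*, which are at work in preadipocytes, and *Pparg*, *Cebpa* and *Klf15*, which act in the later phase. They were chosen by name, with no cutoff on a measured value, but earlier results of these data were known. The choice was made from the 19505 genes with a named probe set on the Clariom S Mouse array (Affymetrix), which reports gene expression by hybridization. Each of the 10 genes was read by 1 probe set. The cells were 3T3-L1 cells, an established mouse preadipocyte line that turns into fat-storing cells in culture. In the MM.1S pre-exposed group (MM-3T3-L1s, n = 3 arrays), confluent preadipocytes shared RPMI-1640 medium for 48 h with MM.1S cells, a human multiple myeloma line, which sat behind a transwell membrane with 0.4 µm pores. In the control group (n = 2 arrays), the preadipocytes spent that time in RPMI-1640 medium without myeloma cells. The myeloma cells were then taken away, and both groups received the same adipogenic medium with 0.5 mM IBMX, 1 µM dexamethasone and 5 µg/mL insulin for 4 days, insulin alone for 2 days and basal medium for 1 day. Apart from that last day, the labels also list 4 days in basal medium for both groups. RNA was collected after 7 days of differentiation, so the values show the factors in differentiated cultures and not during the exposure.

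Adipogenesis is run by a cascade of transcription factors. The hormonal cocktail switches on *Cebpb*, helped by KLF4, and *Cebpd*. Their products induce *Klf5* and, with it, activate *Pparg* and, in turn, *Cebpa*, whose products then sustain each other and turn on the genes of the fat cell. EBF1 and ZFP423 mark and prepare cells committed to the fat lineage, whereas GATA2 holds preadipocytes back from differentiation and is normally lowered as they proceed. *Pparg* and *Cebpa* are therefore read as marks of how far a culture has come, and *Cebpb* and *Cebpd* also respond to inflammatory signals and to glucocorticoids.

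The stretches before 3 transcription starts are shown because the cascade runs through these genes: *Cebpb* receives the cAMP signal of the cocktail, and C/EBP proteins act on *Pparg* and *Cebpa*. The sequences are RefSeq promoter windows of mouse build GRCm38.p6, printed 5′ to 3′ as the 250 bases before the start, all on the plus strand. *Cebpb* lies at chr2:167688665-167688914, the *Pparg* window at chr6:115421816-115422065 is the most downstream of 3 windows of that gene and the only one of them with C/EBP letters, and *Cebpa* lies at chr7:35119043-35119292. Capitals mark matches on either strand to TTNNGNAA (C/EBP), TGACG (the core of a cAMP response element, CRE) and CACCC (KLF).
Cebpb: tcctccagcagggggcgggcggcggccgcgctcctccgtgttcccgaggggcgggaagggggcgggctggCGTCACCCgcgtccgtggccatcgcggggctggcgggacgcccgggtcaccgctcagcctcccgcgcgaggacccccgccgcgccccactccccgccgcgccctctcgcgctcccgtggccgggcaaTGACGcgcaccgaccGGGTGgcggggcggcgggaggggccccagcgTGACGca
Pparg: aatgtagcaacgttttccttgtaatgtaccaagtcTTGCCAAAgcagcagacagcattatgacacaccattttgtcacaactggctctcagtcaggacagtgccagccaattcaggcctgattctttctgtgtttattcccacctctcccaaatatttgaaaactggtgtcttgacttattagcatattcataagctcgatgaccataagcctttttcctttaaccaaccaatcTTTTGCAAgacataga
Cebpa: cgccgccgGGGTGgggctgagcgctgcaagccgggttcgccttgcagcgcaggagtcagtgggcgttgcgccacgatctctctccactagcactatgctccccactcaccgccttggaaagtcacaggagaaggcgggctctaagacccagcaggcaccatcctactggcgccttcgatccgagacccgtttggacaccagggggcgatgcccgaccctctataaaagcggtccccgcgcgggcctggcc

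Within these letters the *Cebpb* window held the CRE core at 3 places, starting -180, -53 and -7 bases from the start, and CACCC at 2 places, the first of which overlaps the CRE core at -180. The *Pparg* window held the C/EBP letters 2 times, at -215 and -16, against 0 in the other 2 *Pparg* windows. The *Cebpb* and *Cebpa* windows held 0 C/EBP matches. In the *Cebpa* window CACCC was found on the other strand at -242, and a TATAAA box lay at -30. Windows of 300 bases, of which 50 follow the start, were given for 8 of the 10 genes, 13 windows in all, and *Cebpd* and *Klf5* have none here. C/EBP letters occurred in 5 of the 13 windows and in 40.7% of all 32851 mouse promoter windows of that length. The CRE core occurred in 4 of 13 against 20.8% of all, CACCC in 10 of 13 against 57.5%, GATAA (GATA) in 1 of 13 against 25.4%, CACGTG (E-box) in 2 of 13 against 7.15%, and TATAAA in 3 of 13 against 13.6%. Such short matches are a description of the letters and not of binding.

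None of the 10 factors passed the study's thresholds, an unadjusted p of 0.05 or less with a fold change above 1.5, in either direction, where 0.910% of the 22206 probe sets on the array were called higher and 1.44% lower (2.35% in either direction). At that p and any fold, *Cebpb* was higher and *Klf5* lower, 2 of 10 genes against 7.58% of all probe sets, of which 3.48% were higher and 4.11% lower. No gene, among the 10 or on the whole array, had an adjusted p below 0.05 in limma, against 1684 probe sets at an unadjusted p of 0.05 or less, and 2 genes outside the 10, *Rbpjl* and *Ccdc137*, had one in the study's own test (log2 fold changes 0.086 and 0.39). The adjusted p of the 10 factors ran from 0.590 to 0.903. The log2 fold change, MM-3T3-L1s minus controls, was above 0 for 5 factors and below 0 for 5, with a median of -0.019 against 0.014 over all probe sets. The median size of the difference was 0.20 log2 units, against 0.15 over all probe sets. In 4 of the 10 the groups did not overlap, 2 with all MM-3T3-L1s arrays higher (11.9% of all probe sets) and 2 with all lower (12.2%), against 24.1% of all probe sets apart in either direction. These 4 genes were *Cebpb*, *Klf5*, *Zfp423* and *Pparg*.

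All values below are log2 signals, which can be compared between arrays for a gene but not between genes. The labels do not say that replicates came from separate cultures, so every p here reflects no more than the scatter among these samples, which may be technical, and 5 arrays limit the precision. With 3 arrays against 2, an exact permutation test cannot give a two-sided p below 0.1. All 10 factors lay above a background level of 3.59, the value under which 95% of 1448 olfactory, vomeronasal and taste receptor genes fell.

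**Figure D1:**
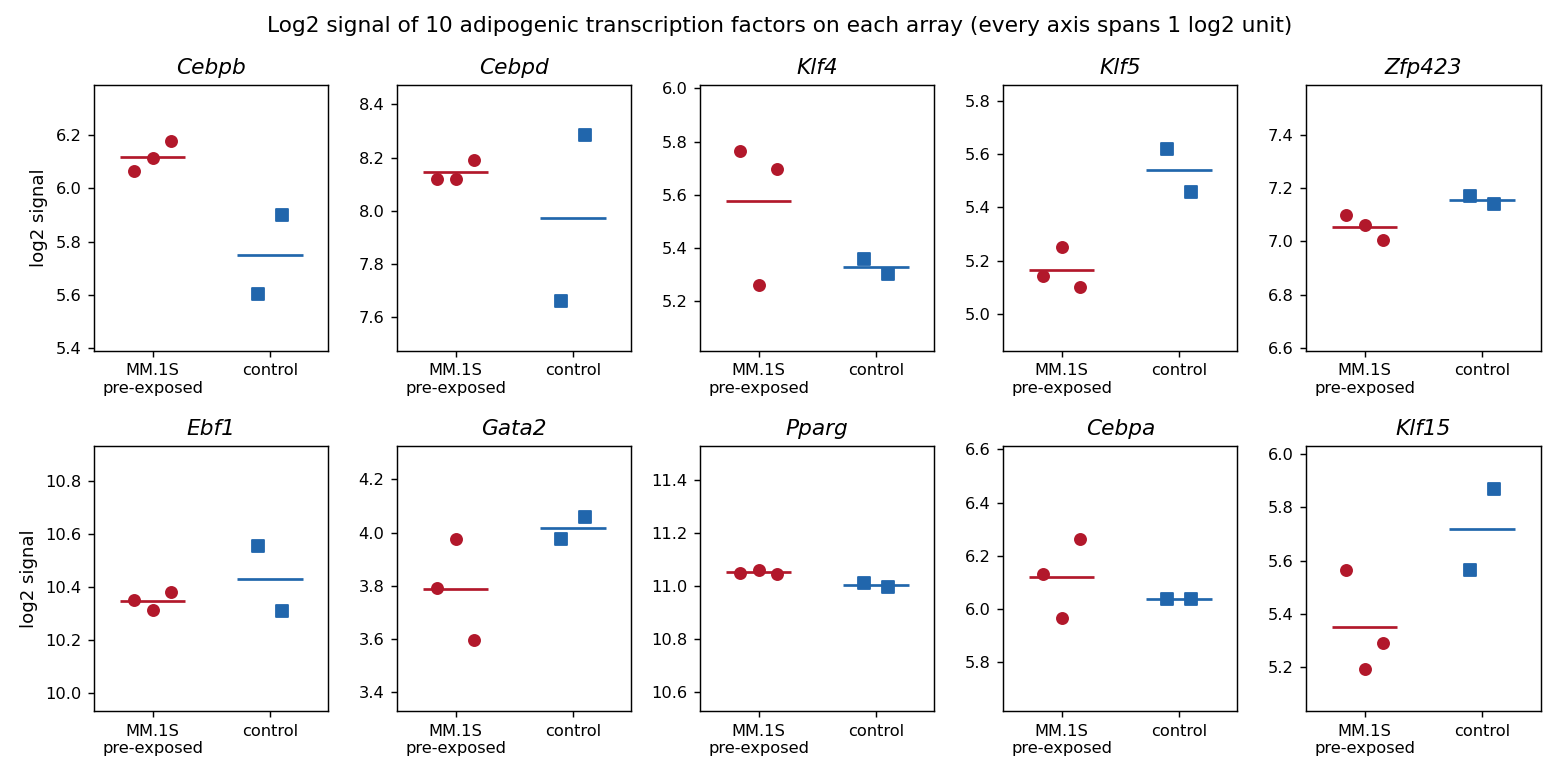
Log2 signal (vertical axis, 1 log2 unit in every panel) of each factor on the 3 MM.1S pre-exposed arrays (red circles) and the 2 control arrays (blue squares), with lines at the group means. The groups lie apart for *Cebpb* and *Pparg*, with MM-3T3-L1s higher, and for *Klf5* and *Zfp423*, with MM-3T3-L1s lower, and they overlap for the other 6 genes.

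Among the early activators, *Cebpb* was higher and *Klf5* lower in MM-3T3-L1s at an unadjusted p of 0.05 or less, neither by 1.5-fold, while *Cebpd* and *Klf4* overlapped between the groups. *Cebpb* encodes C/EBP-beta, the bZIP factor that starts the cascade. It had log2 signals of 6.06, 6.11 and 6.18 in MM-3T3-L1s, against 5.60 and 5.90 in controls. Every MM-3T3-L1s array was above both control arrays, and the control arrays lay farther from each other than the 3 MM-3T3-L1s arrays did. The difference was 0.37 log2 units (SE 0.13, 95% interval 0.04 to 0.70), or 1.29-fold (adjusted p = 0.626 by limma). Without control replicate 1 the difference was 0.22, and the unadjusted p was then above 0.05, as it was without any 1 of the MM-3T3-L1s arrays (0.34 to 0.40) and in the test of the study's methods, which takes the spread of each gene alone.

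*Cebpd* encodes C/EBP-delta, which is induced beside C/EBP-beta. Its log2 signals were 8.12, 8.12 and 8.19 in MM-3T3-L1s, against 7.66 and 8.29 in controls. The 3 MM-3T3-L1s values lay close together and between the 2 control values, which were 0.63 log2 units apart. The difference was 0.17 (SE 0.20, 95% interval -0.32 to 0.66, adjusted p = 0.803 by limma), and its sign rested on the controls, being -0.14 without control replicate 1 and 0.48 without control replicate 2, where the unadjusted p was below 0.05.

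*Klf4*, a zinc finger factor that works with others to switch on *Cebpb*, had log2 signals of 5.77, 5.26 and 5.70 in MM-3T3-L1s, against 5.36 and 5.30 in controls. Of the MM-3T3-L1s arrays 2 were above both controls and replicate 2 was below both. The difference was 0.25 (SE 0.18, 95% interval -0.20 to 0.69, adjusted p = 0.721 by limma), and it was 0.40, with an unadjusted p below 0.05, without MM.1S replicate 2, but 0.15 without MM.1S replicate 1 and 0.18 without MM.1S replicate 3, where the p was above it. *Klf5*, a KLF factor induced by C/EBP-beta and C/EBP-delta that acts on the *Pparg* promoter, had log2 signals of 5.14, 5.25 and 5.10 in MM-3T3-L1s, against 5.62 and 5.46 in controls. All MM-3T3-L1s arrays lay below both controls, the opposite side to *Cebpb*. The difference was -0.37 (SE 0.12, 95% interval -0.66 to -0.08), a ratio of 0.772 (adjusted p = 0.590 by limma), and it was -0.29, with an unadjusted p above 0.05, without control replicate 1.

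The preadipocyte factors all had log2 fold changes below 0, and none had a p of 0.05 or less. *Zfp423* encodes a zinc finger factor that marks committed preadipocytes. Its log2 signals were 7.10, 7.06 and 7.01 in MM-3T3-L1s, against 7.17 and 7.14 in controls. The groups lay apart by a narrow margin, with a difference of -0.10 (SE 0.10, 95% interval -0.36 to 0.16, adjusted p = 0.782 by limma). *Ebf1*, an early B-cell factor that also acts in adipocyte differentiation, had log2 signals of 10.35, 10.32 and 10.38 in MM-3T3-L1s, against 10.55 and 10.31 in controls. The second control lay below all MM-3T3-L1s arrays and the first above them. The difference was -0.08 (SE 0.12, 95% interval -0.38 to 0.22, adjusted p = 0.845 by limma), and 0.038 without control replicate 1.

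*Gata2* encodes a GATA factor that restrains *Pparg* in preadipocytes. Its mean was 0.29 log2 units above the background level. Its log2 signals were 3.79, 3.98 and 3.59 in MM-3T3-L1s, against 3.98 and 4.06 in controls. The groups met at 3.98, the value of MM.1S replicate 2 and of control replicate 1, and the other 2 MM-3T3-L1s arrays were lower than both controls. The difference was -0.23 (SE 0.15, 95% interval -0.59 to 0.13, adjusted p = 0.696 by limma). It was -0.13 without MM.1S replicate 3 and -0.33 without MM.1S replicate 2.

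Of the late factors, none passed the test, and the intervals of *Pparg* and *Cebpa* held no change of 1.5-fold. *Pparg* encodes the nuclear receptor PPAR-gamma, on which fat cell formation depends. It had log2 signals of 11.05, 11.06 and 11.04 in MM-3T3-L1s, against 11.01 and 11.00 in controls. Every MM-3T3-L1s array was above both controls, with the smallest difference of the 10 genes. The difference was 0.046 (SE 0.10, 95% interval -0.20 to 0.30, adjusted p = 0.903 by limma), or 1.03-fold, with a fold interval of 0.868 to 1.23. The SDs were 0.0073 in MM-3T3-L1s and 0.011 in controls, and the test of the study's methods put *Pparg* and *Klf5* at an unadjusted p of 0.05 or less, 2 of the 10 factors against 5.80% of all probe sets. *Pparg* has isoforms from separate promoters, and its single probe set cannot tell them apart.

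*Cebpa*, whose product C/EBP-alpha sustains *Pparg* and the insulin response of the fat cell, had log2 signals of 6.13, 5.97 and 6.26 in MM-3T3-L1s, against 6.04 and 6.04 in controls. The MM-3T3-L1s arrays lay on both sides of the controls, which were nearly equal. The difference was 0.08 (SE 0.13, 95% interval -0.24 to 0.40, adjusted p = 0.857 by limma), and it was 0.011 without MM.1S replicate 3 and 0.16 without MM.1S replicate 2. *Klf15*, a KLF factor that rises late and acts on the glucose transporter gene *Slc2a4*, had log2 signals of 5.57, 5.19 and 5.29 in MM-3T3-L1s, against 5.56 and 5.87 in controls. MM.1S replicate 1 was as high as the lower control, and the other 2 MM-3T3-L1s arrays were below both. The difference was -0.37 (SE 0.17, 95% interval -0.78 to 0.04, adjusted p = 0.665 by limma), and it was -0.48, with an unadjusted p below 0.05, without MM.1S replicate 1, and -0.21 without control replicate 2, where the p was above it.

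**Figure D2:**
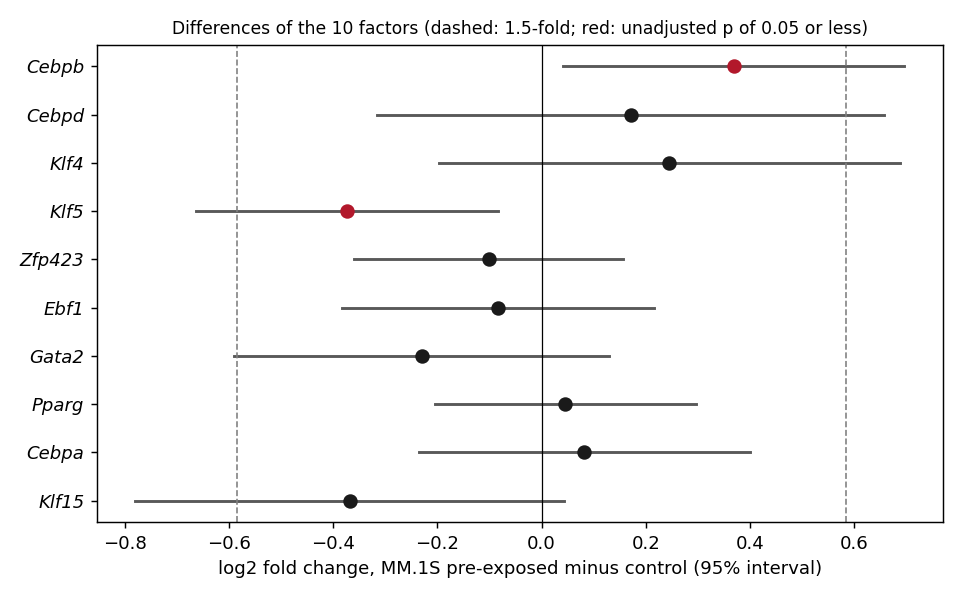
Log2 fold change of each factor, MM-3T3-L1s minus controls (horizontal axis), with the 95% interval of limma's fit over 5 arrays. Red points mark the genes with an unadjusted p of 0.05 or less, *Cebpb* and *Klf5*, and the intervals of *Zfp423*, *Ebf1*, *Pparg* and *Cebpa* stay within the dashed lines of a 1.5-fold change.

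The intervals set how large a change could have been missed. For 4 factors, *Zfp423*, *Ebf1*, *Pparg* and *Cebpa*, the interval held no change of 1.5-fold in either direction. For the other 6 it reached at least 1.5-fold on a side, so a change of that size lay within the interval. Of these 6, the intervals of *Cebpb* and *Klf5* did not hold 0 and those of the other 4 did. The gap between the 2 controls was larger than the range of the 3 MM-3T3-L1s arrays in 5 of the 10 genes.

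**Figure D3:**
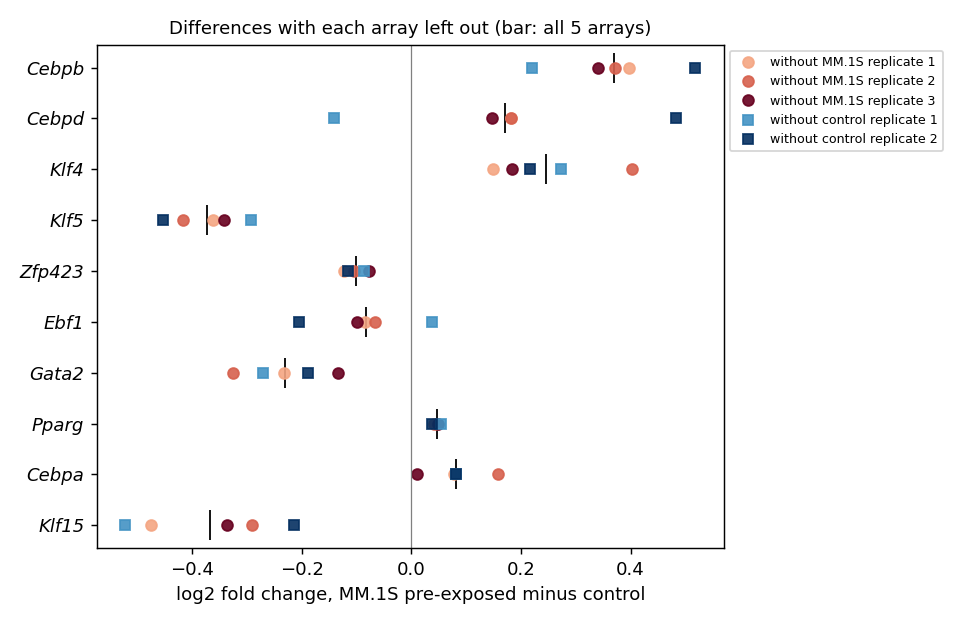
Log2 fold change of each factor, MM-3T3-L1s minus controls (horizontal axis), with all 5 arrays (black bar) and with each array left out in turn (red circles, an MM.1S replicate left out, and blue squares, a control replicate left out). The sign turned only for *Cebpd* and *Ebf1*, both without control replicate 1.

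The genes that PPAR-gamma and C/EBP-alpha switch on in fat cells are the known targets of the late factors. Of 20 such genes 18 were measured, with 0 calls of a higher level in MM-3T3-L1s and 1 of a lower level. The called gene was *Retn*, which encodes the adipokine resistin. Its log2 signals were 8.88, 8.75 and 8.20 in MM-3T3-L1s, against 9.40 and 9.08 in controls. It was lower on every MM-3T3-L1s array, by 0.63 log2 units (log2 fold change -0.63, SE 0.23, adjusted p = 0.642 by limma). The call did not hold in the methods' test, nor without MM.1S replicate 2 (log2 fold change -0.70), MM.1S replicate 3 (-0.43, under 1.5-fold), control replicate 1 (-0.47) or control replicate 2 (-0.79). At a p of 0.05 or less and any fold, 4 of the 18 targets were higher and 2 lower. At that p, 3.48% of all probe sets were higher and 4.11% lower. The list's median log2 fold change was 0.13 against 0.014 over all probe sets. The 4 were *Fabp4*, the fatty acid carrier of adipocytes (0.32), *Aqp7*, the glycerol channel (0.54), *Dgat2*, which makes triglyceride (0.43), and *Angptl4*, an inhibitor of lipoprotein lipase (0.44). The other lower gene beside *Retn* was *Scd1*, a fatty acid desaturase (-0.43). These 5 were named after their values were seen.

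The labels give both groups 7 days of adipogenic differentiation, and 8 adipocyte markers were measured (*Adipoq*, *Fabp4*, *Plin1*, *Cidec*, *Lpl*, *Cd36*, *Lipe* and *Slc2a4*), all above the background level on average. *Slc2a4*, the insulin-responsive glucose transporter gene, had the lowest margin, with means of 5.75 in MM-3T3-L1s and 6.09 in controls. The leptin gene *Lep*, a target in the list above, lay below the background level on average, with 3.43 in MM-3T3-L1s and 3.56 in controls. *Adipoq*, the adiponectin gene, had log2 signals of 11.79, 11.86 and 11.79 in MM-3T3-L1s, against 11.80 and 11.67 in controls, and the groups overlapped. *Fabp4* had 12.62, 12.60 and 12.53 in MM-3T3-L1s, against 12.29 and 12.25 in controls, with every MM-3T3-L1s array higher. In bulk RNA such as this, fewer cells of a type and less RNA per cell cannot be told apart.

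The acute-phase genes with C/EBP sites in their promoters were the list with the most calls. Of 8 genes 7 were measured, 4 were called higher and 0 lower, and the median log2 fold change was 0.93. *Lcn2*, which encodes the iron-scavenging lipocalin 2, had log2 signals of 10.80, 11.02 and 10.71 in MM-3T3-L1s, against 9.35 and 9.88 in controls (log2 fold change 1.23, SE 0.19, adjusted p = 0.348 by limma). *Hp*, the gene of the hemoglobin-binding protein haptoglobin, had 12.15, 12.18 and 11.94 in MM-3T3-L1s, against 11.13 and 10.82 in controls (log2 fold change 1.12, SE 0.15, adjusted p = 0.281 by limma). Both kept the call with any array left out. *Saa3*, a serum amyloid A gene, had 11.33, 11.30 and 10.86 in MM-3T3-L1s, against 9.82 and 10.64 in controls (log2 fold change 0.93, SE 0.28, adjusted p = 0.583 by limma). Its call was lost in the methods' test and without MM.1S replicate 1 (log2 fold change 0.85), MM.1S replicate 2 (0.86) or control replicate 1 (0.52). *Il6*, the gene of the cytokine interleukin-6, had 5.93, 5.79 and 5.21 in MM-3T3-L1s, against 4.54 and 4.81 in controls (log2 fold change 0.97, SE 0.24, adjusted p = 0.528 by limma). Its call was lost without control replicate 1 (0.83). The orosomucoid genes *Orm1*, *Orm2* and *Orm3*, near copies of one another, had log2 fold changes of -0.26, -0.25 and -0.21 and were not called. *Orm3* lay below the background level on average. *Lcn2*, *Hp* and *Il6* are among the genes the study names from these arrays, so the count of this list is no independent evidence of its direction.

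Genes that respond to glucocorticoids, the class of drug in the cocktail that also acts on *Cebpd*, had 0 called higher and 1 lower of 9 measured, with a median of -0.29. The lower gene was *Errfi1*, an inhibitor of EGF receptor signaling. It had log2 signals of 6.51, 6.53 and 6.19 in MM-3T3-L1s, against 7.18 and 7.18 in controls (log2 fold change -0.77, SE 0.14, adjusted p = 0.434 by limma). *Errfi1* kept this call with any array left out. At a p of 0.05 or less and any fold, *Per1*, a clock gene (-0.46), and *Sgk1*, a kinase gene (-0.42), were also lower. Both were named after their values were seen. In total 3 of the 9 genes were lower at that p, against 4.11% of all probe sets.

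No gene was called in the lists of other regulators. Of 15 measured factors that promote adipogenesis 0 were called, with a median log2 fold change of -0.16. The smallest p-values there belonged to *Stat5b* (0.26, adjusted p = 0.664 by limma), *Nr1h3*, the LXR-alpha gene (-0.43, adjusted p = 0.677 by limma), and *Rxra*, the partner receptor of PPAR-gamma (-0.20, adjusted p = 0.695 by limma). The unadjusted p of *Stat5b* was below 0.05 in the methods' test (0.26) and, by limma, with quantile normalization once more (0.33), both under 1.5-fold. All 3 genes moved with a single control array. *Nr1h3* had -0.75, past both thresholds, without control replicate 1 and -0.12 without control replicate 2, *Rxra* had -0.063 without control replicate 1 and -0.34 without control replicate 2, and *Stat5b* had 0.35 without control replicate 1 and 0.16 without control replicate 2. Of 13 measured factors that restrain adipogenesis 0 were called, with a median of -0.11. *Ddit3*, a C/EBP relative that blocks DNA binding by its partners, had -0.34 (adjusted p = 0.678 by limma). It had -0.54 without control replicate 1 and -0.13 without control replicate 2. Its unadjusted p in limma was below 0.05 with the replicate number as a block (-0.43) and with an intensity trend and robust prior (-0.34). In the main fit and the methods' test the unadjusted p was above 0.05. The *Ddit3* probe set with the lowest mean had -0.40, with an unadjusted p above 0.05 in limma. *Irf4* had 0.39 (adjusted p = 0.680 by limma), and *Foxc2*, below the background level on average, had -0.49 (adjusted p = 0.682 by limma). With an array left out, *Irf4* had 0.23 to 0.53 and *Foxc2* -0.73 to -0.25.

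Coregulators also had 0 calls among 11 measured, with a median of 0.04. *Sirt1*, a deacetylase that represses PPAR-gamma, had -0.52 (adjusted p = 0.664 by limma), *Ppargc1a*, the coactivator PGC-1-alpha, 0.50 (adjusted p = 0.683 by limma), and *Ncoa2*, a steroid receptor coactivator, -0.17 (adjusted p = 0.696 by limma). *Sirt1* had -0.71, past both thresholds, without MM.1S replicate 2 and -0.36 without MM.1S replicate 3, and *Ppargc1a* had 0.74, past both thresholds, without MM.1S replicate 3 and 0.31 without control replicate 2. Relatives of the 10 factors in the C/EBP, KLF, EBF, GATA and other families had 0 calls among 26 measured, with a median of -0.05. Beside *Ddit3*, the smallest p-values were those of *Klf7* (-0.21, adjusted p = 0.696 by limma) and *Klf6* (-0.19, adjusted p = 0.709 by limma).

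**Figure D4:**
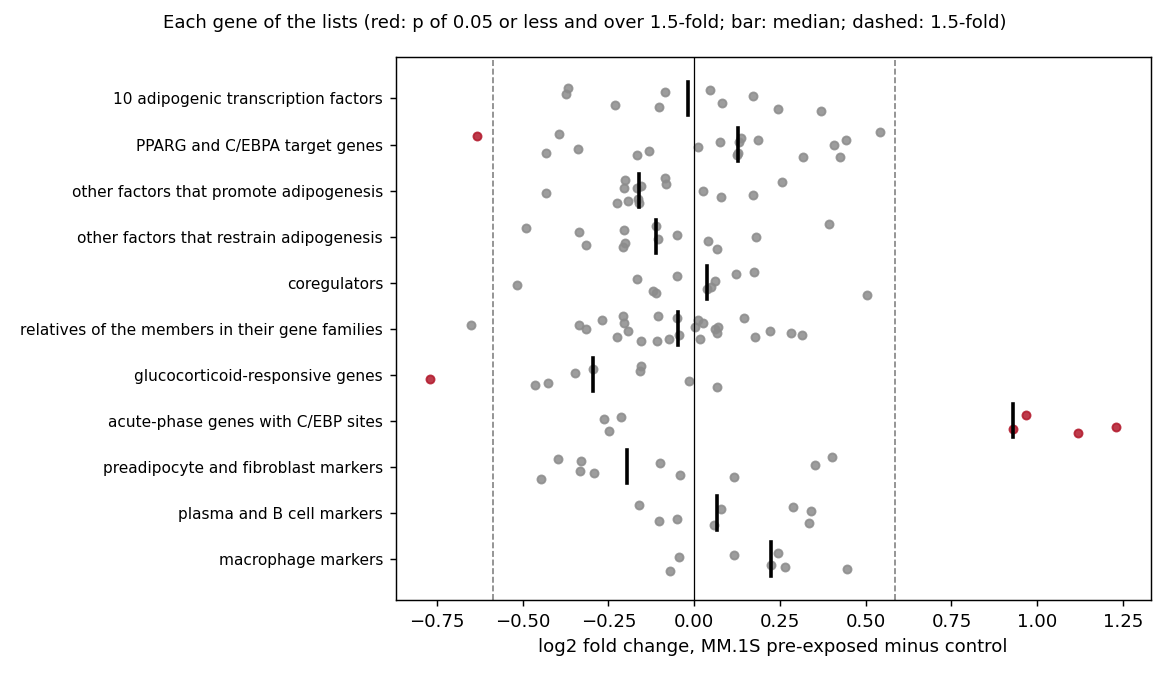
Log2 fold change of every measured gene (horizontal axis, MM-3T3-L1s minus controls) in the 10 factors and in each list, with black bars at the medians and dashed lines at 1.5-fold. Genes past both thresholds are red: 4 acute-phase genes on the right, and *Retn* and *Errfi1* on the left.

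Markers of the cells that had not become adipocytes were measured beside these values. Of 12 preadipocyte and fibroblast markers 10 were measured and 8 lay above the background level, with 0 called and a median log2 fold change of -0.19. The mean level over the list was 7.82 to 7.87 in MM-3T3-L1s, against 7.92 to 8.00 in controls. At a p of 0.05 or less and any fold, *Ccn5* (0.40) and *Pdgfrb* (0.35) were higher. Lower at that p were *Dlk1*, the gene of the preadipocyte factor Pref-1 (-0.45), *Col3a1* (-0.40) and *Vim* (-0.33). Over all probe sets 3.48% were higher and 4.11% lower at that p. *Pdgfrb* and *Vim* were named after their values were seen. Of the 10 measured markers 3 had a log2 fold change above 0 and 7 below, and their part in the results was not tested.

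Most markers of other cells lay below the background level on average. Of 8 measured plasma and B cell markers 1 lay above the background level, the syndecan gene *Sdc1*, with 7.55 in MM-3T3-L1s and 7.50 in controls, and 0 were called. The list's mean was 3.28 to 3.49 in MM-3T3-L1s, against 3.23 to 3.35 in controls, and *Cd79a*, *Cd79b* and *Mzb1* had the smallest p-values (log2 fold changes 0.34, 0.33 and 0.29). The array reads mouse genes and the MM.1S cells are human, so carry-over of myeloma RNA was not tested by these markers. Of 7 measured macrophage markers 2 lay above the background level and 0 were called, with a list mean of 3.34 to 3.50 in MM-3T3-L1s, against 3.25 to 3.28 in controls. The 2 were *Lyz2*, with 5.54 in MM-3T3-L1s and 5.32 in controls, and *Ptprc*, with 4.16 and 4.04. *Cd163* (0.45), *Itgam* (0.26) and *Mrc1* (0.25) had the smallest p-values there, and all 3 lay below the background level on average. *Cd163* had 0.66, past both thresholds, without MM.1S replicate 2.

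The genes most like the 2 main late factors over the 5 arrays were found by the root-mean-square difference of their centred log2 signals, among 12135 genes above background. For *Pparg* they were *Nr2c1*, *Pfdn2* and *Ap3s1*, at 0.011, 0.012 and 0.013 log2 units. For *Cebpa* they were *Rgs14*, *Farsa* and *Mxra7*, at 0.017, 0.018 and 0.019. Both sets of genes follow small differences, with log2 fold changes of 0.03 to 0.04 for the *Pparg* set and 0.09 to 0.11 for the *Cebpa* set.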

How the data were processed

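RNA of 5 samples was hybridized to Clariom S Mouse arrays, and all 5 arrays were used. The deposited values are log2 signals that the authors made from the scans in Partek Genomics Suite by RMA, which corrects background, equalizes the arrays and summarizes probes, so small differences may be damped. RNA input is 50 ng per the labels, and the study's methods give another amount. Whether other arrays were normalized together with these is not given in the sources used here. No probe set was filtered. Of 22206 probe sets 19572 carried a symbol and 2634 are unnamed here, and 13551 (61.0%) lay above the background level. Array medians were 4.47 to 4.53, and pairs of arrays correlated with r of 0.985 to 0.993 across probe sets. In 27.3% of probe sets at least 2 arrays had an identical value.

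Groups were compared with lmFit and eBayes of limma 3.58.1 in R 4.3.3 (group as the only term, 3 residual and 2.79 prior degrees of freedom, two-sided), with Benjamini-Hochberg adjustment over all probe sets. A gene with several probe sets was read by that with the highest mean. The thresholds and the one-way ANOVA, an alternative here, are those of the study's methods. The other alternatives were an intensity trend with a robust prior, no dim probe sets, quantile normalization once more, median centring, array weights, the replicate number as a block, fold limits of 1.2 and none, each array left out and the probe set with the lowest mean. The limma step was tested on simulated data. The 10 genes, the gene lists and the rule for names were chosen with earlier results of these data known. The rule named the 10 factors, every list gene past the thresholds, otherwise up to 3 per list with the smallest p, and the 3 genes most like *Pparg* and *Cebpa*. Other genes named in the text, such as *Orm1*, *Adipoq*, *Sdc1*, *Rbpjl* and *Ccdc137*, were taken after their values were seen. Promoter windows came from RefSeq. No protein sequence was used here.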

Additional observations from a re-analysis of the deposited data

How the results depend on the processing

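Over 13 alternatives, 116 of 130 fits of the 10 factors kept the direction and the side of the p threshold, and none had an adjusted p below 0.05. These counts include the alternative with the lowest-mean probe set. Each of the 10 factors has 1 probe set, so that alternative repeated the main fit and could not differ from it. The sign turned in 2, both without control replicate 1, *Cebpd* (-0.14) and *Ebf1* (0.038). With an array left out, *Cebpb* had 0.22 to 0.52, *Cebpd* -0.14 to 0.48, *Ebf1* -0.20 to 0.038, *Klf4* 0.15 to 0.40, *Gata2* -0.33 to -0.13, *Cebpa* 0.011 to 0.16 and *Klf15* -0.52 to -0.21. No factor passed with 1.5-fold in any alternative, whereas a fold limit of 1.2, or none, called 1 higher and 1 lower.

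The labels do not say whether same-numbered arrays belong together, and only 2 numbers are shared. Deviations of same-numbered arrays from their group means correlated at r = -0.03 and 0.11. With 2 controls, their deviations are equal and opposite, so these 2 values are not independent and cannot decide whether the arrays are paired. Replicate number 3 occurs only in MM-3T3-L1s, so a block on the number gives the same differences as leaving out MM.1S replicate 3. With the replicate block, *Cebpb* had 0.34 and *Klf5* -0.34, both with an unadjusted p above 0.05 in limma. The lists other than the factors had 6 higher and 1 lower, targets 1 higher and 0 lower, and coregulators 1 higher. Over all probe sets the block gave 275 higher and 395 lower, against 202 and 320 without it.

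For the lists together, 4 genes were higher and 2 lower. With a fold limit of 1.2 or none these were 10 and 8, targets had 4 and 2, glucocorticoid-responsive genes 3 lower, and preadipocyte markers 2 higher and 3 lower. The methods' test and array weights each gave 1 lower over all lists and 0 lower targets. Array weights gave 1 higher coregulator, and quantile normalization once more 1 higher target. With an array left out, counts over the lists were 3 to 6 higher and 1 to 2 lower. Targets had 0 to 1 higher and 0 to 1 lower, promoting factors 0 to 1 lower, coregulators 0 to 1 in each direction, acute-phase genes 2 to 4 higher, and macrophage markers 0 to 1 higher.

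Over all probe sets, 202 were higher and 320 lower. The methods' test gave 104 and 180, the fit without dim probe sets 121 higher, a fold limit of 1.2 gave 771 and 911, no limit 772 and 912, and the fit without control replicate 1 gave 352 higher. The causes were not tested. With 2 control arrays, the 95% interval held a 1.5-fold change for 6 of the 10 factors.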
